A study of Homo sapiens with 6 samples.

Results

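The BCL2 family genes decide whether a cell commits to death through its mitochondria, and 10 of them were followed here by gene symbol among the 23284 symbols in the deposited tables. They were chosen by name, and all 10 also belonged to the 11134 genes that passed the expression filter of a mean above 1 FPKM in at least 1 group. FPKM counts fragments per kilobase of transcript, scaled to the number of mapped fragments of a library, so that levels can be set side by side between genes. Of the 10 members, 4 promote survival (BCL2, BCL2L1, MCL1 and BCL2A1) and 6 promote death (BAX, BAK1, BBC3, PMAIP1, BCL2L11 and BID). Poly(A)-selected RNA of GM12873 was sequenced, an Epstein-Barr virus-transformed B-lymphoblastoid cell line, from 3 samples labelled Control and 3 labelled Lyo. Control cells were washed in PBS and lysed directly. Lyo cells were freeze-dried in PBS with 0.1 M trehalose, a protective sugar, and kept dry at room temperature for 2 weeks before lysis. The paper pairs each Lyo sample with the Control sample of the same replicate number, and these pairs are numbered 1 to 3. All samples come from 1 cell line, and the labels do not say whether the pairs are separate cultures, so p-values measure the spread between these samples only. In bulk RNA, fewer cells and less RNA per cell cannot be told apart.

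Members of the family meet at the mitochondrial outer membrane. BAX and BAK1 form the pores that release cytochrome c, the survival members hold them in check, and BH3-only proteins (here BBC3, PMAIP1, BCL2L11 and BID) bind the survival members or activate the pore formers after stress. B cells depend on survival members for their lifespan, and in virus-transformed B cells BCL2A1 is an NF-kB target that viral signalling induces. Several of these messages, MCL1 and PMAIP1 among them, are known for rapid turnover in living cells.

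The family is held together by the BH3 domain, the short helix by which its members bind each other, so the coding bases around its core are shown for 5 members whose levels the results turn on. The core was searched in each translated coding sequence as a leucine, any 3 residues, a glycine or alanine, and an aspartate. It matched once in 9 of the 10 members and not in BCL2A1, against 26.6% of the 9440 tested genes with a coding transcript, and a match is only a description of these letters. Coordinates are on GRCh37, each window lies inside 1 coding exon, and capitals mark the core codons. The windows are BCL2 in exon 1 at chr18:60985582-60985623 on the minus strand, MCL1 in exon 1 at chr1:150551341-150551382 on the minus strand, BAX in exon 3 at chr19:49459032-49459073 on the plus strand, BBC3 in exon 3 at chr19:47729836-47729877 on the minus strand, and PMAIP1 in exon 2 at chr18:57569893-57569934 on the plus strand.
BCL2: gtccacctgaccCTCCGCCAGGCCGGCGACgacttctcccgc
MCL1: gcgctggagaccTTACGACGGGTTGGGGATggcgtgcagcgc
BAX: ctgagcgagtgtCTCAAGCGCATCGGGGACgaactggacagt
BBC3: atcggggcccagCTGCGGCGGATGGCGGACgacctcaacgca
PMAIP1: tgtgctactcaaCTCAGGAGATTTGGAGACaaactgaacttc
These codons serve the same helix in different base compositions. Of the 42 bases, G and C made up 71.4% in BBC3 and 73.8% in BCL2 but 42.9% in PMAIP1.

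AU-rich elements in a 3′ UTR mark many short-lived messages, so the nonamer TTATTTATT was searched on the transcript strand of each 3′ UTR. Among the members, 1 copy was found in BCL2 and 1 in PMAIP1, and the other 8 members held none in the transcript used. Of the 9440 genes, 9.39% held at least 1. The shorter pentamer ATTTA occurred 13 times in BCL2, 10 in MCL1, 8 in BCL2L11, 5 in PMAIP1, 3 in BCL2L1 and 2 in BID. It was absent from BCL2A1, BAX, BAK1 and BBC3, and was not counted in other genes. The windows below are in the last exon, at chr18:60795586-60795614 on the minus strand for BCL2 and chr18:57571193-57571221 on the plus strand for PMAIP1, with the nonamer in capitals.
BCL2: aaaaaaagatTTATTTATTtaagacagtc
PMAIP1: aggaataattTTATTTATTttgcctattt
The 3′ UTR of PMAIP1 held 31.4% G and C over 1552 bases, and that of BBC3 63.1% over 978 bases.

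The 6 libraries were B-lymphoblastoid by their markers. All 8 B-cell markers were above 1 FPKM in every sample and summed to between 4529 and 6332 FPKM in Control and between 4501 and 6265 FPKM in Lyo. The 4 T-cell markers summed to at most 0.379 FPKM in Control and 0.337 FPKM in Lyo, with CD3G at 0 in every sample. The 4 monocyte markers summed to between 0.257 and 0.574 FPKM in Control and between 0.497 and 0.981 FPKM in Lyo, and the 4 fibroblast and epithelial markers to at most 1.66 FPKM. The tables hold no read counts, but the value of 1 read in short single-exon olfactory receptor records put the depth at about 10800000, 14800000 and 17800000 fragments in Control 1 to 3 and 20400000, 19800000 and 16500000 in Lyo 1 to 3. The paper lists more raw reads than this for every library and reports that most mapped uniquely, so these estimates may be low. The estimate for Control 1 rests on 3 records. By this measure the least deeply covered value among the members, BCL2L11 in Control 2, rested on about 16.1 fragments per kilobase, while no other member fell below 127.5.

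In Control cells the most abundant message of the family was the pore former BAX, at 199.9 ± 20.0 FPKM (SD, n = 3), above 97.4% of the genes tested. BCL2A1 followed at 84.3 ± 9.56 FPKM, then MCL1 at 73.9 ± 3.10, BID at 66.8 ± 3.58 and PMAIP1 at 56.2 ± 3.74. A second tier held BCL2 at 29.2 ± 9.98 FPKM, BAK1 at 29.1 ± 1.24, BCL2L1 at 23.3 ± 3.58 and BBC3 at 12.4 ± 4.63. BCL2L11, which encodes the BH3-only protein BIM, came last at 1.53 ± 0.446 FPKM and exceeded only 6.59% of the genes tested. Neighbours in this order were not all distinct. The Control ranges of BCL2A1 and MCL1 overlapped, as did those of BCL2 and BAK1, and BCL2 was above BAK1 in 2 of 6 samples. BAX stood above BCL2A1 in 6 of 6 samples with a ratio of Control means of 2.37, and BBC3 above BCL2L11 in 6 of 6 with a ratio of 8.09. In Lyo the ranges of BID and PMAIP1 overlapped, and PMAIP1 was the higher in 2 of 6 samples.

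**Figure D1:**
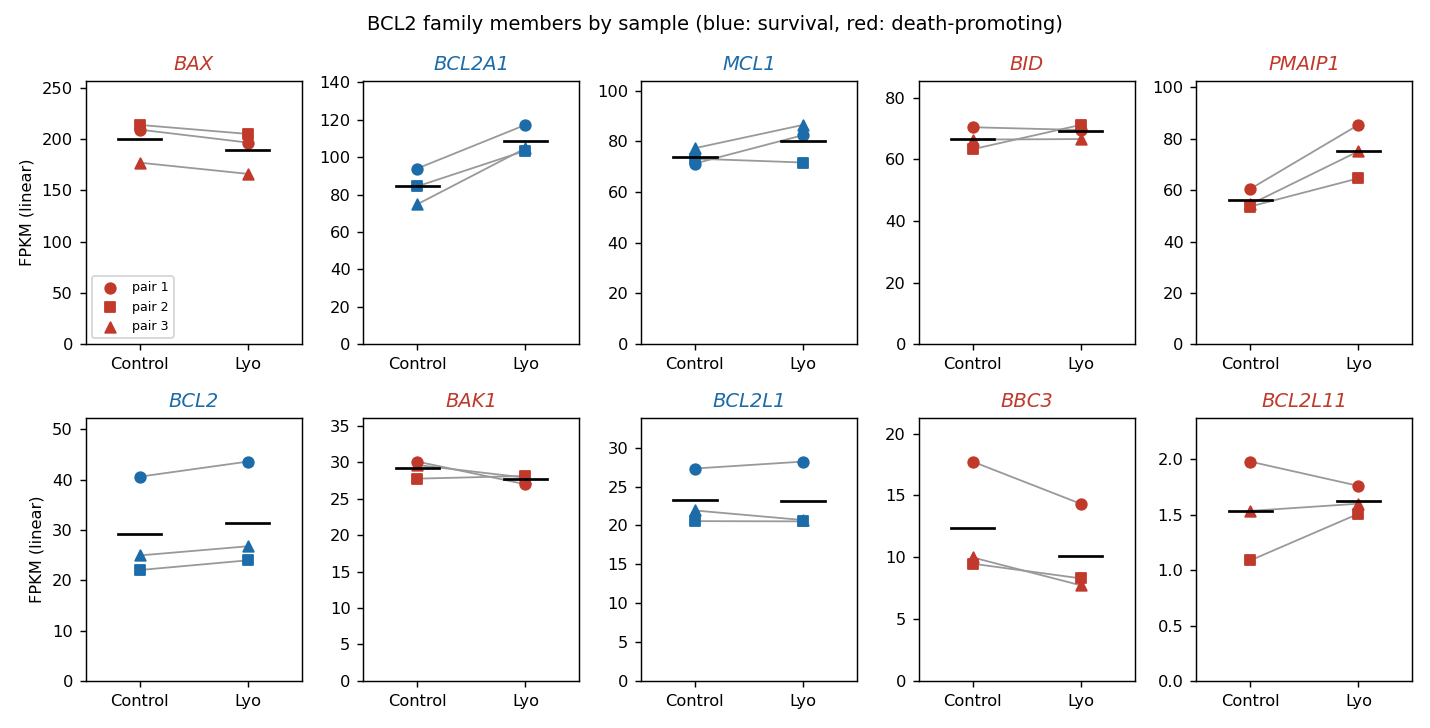
FPKM of each member (vertical axes, linear and starting at 0) in Control and Lyo samples, with paired samples joined by a grey line, a symbol for each pair and a black bar at each group mean, blue for survival and red for death-promoting members. The 3 Lyo points of BCL2A1 (103 to 117 FPKM) and of PMAIP1 (64.6 to 85.4 FPKM) all lie above the Control points, while the groups overlap in the other 8 members.

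The first question was which members differed between dried and fresh cells. Each gene was tested with limma on log2(FPKM + 0.1), with Benjamini-Hochberg adjustment over all 11134 genes. Without the pairing, 0 of the 10 members passed an adjusted p of 0.05, against 0.575% of all genes, and 2 members (BCL2A1 and PMAIP1) had an unadjusted p below 0.05, as did 1573 genes in all. With the pair number as a block, 3 of 10 members passed, against 30.7% of all genes. BCL2A1 and PMAIP1 were higher in Lyo, where 15.9% of all genes were called, and BBC3 was lower, where 14.9% were. Control and Lyo values did not overlap in 2 members, against 22.2% of all genes, and 5 members (BCL2, BCL2A1, BAX, BBC3 and PMAIP1) moved 1 way in all 3 pairs, against 62.2%. The 3 calls among 10 members therefore stood at the background rate. The members' median log2 fold change was 0.08, and that of all genes tested was 0.04.

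Among the survival members, BCL2A1, whose short-lived protein sequesters BH3-only partners, had the largest uncorrected log2 fold change. It had 93.9, 84.4 and 74.8 FPKM in Control 1 to 3 and 117, 103 and 105 FPKM in Lyo 1 to 3. Every Lyo value was above every Control value, and the ratio of Lyo to Control was 1.25, 1.23 and 1.40 in pairs 1 to 3. The log2 fold change was 0.37, or 28.9% more, with a standard error of 0.12 and a limma adjusted p of 0.251 without the block, and with a standard error of 0.05 and an adjusted p of 0.00204 with it.

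MCL1, an essential survival factor of B cells that binds BAK1 and PMAIP1, had 71.3, 73.2 and 77.3 FPKM in Control and 82.5, 71.7 and 86.5 FPKM in Lyo. The groups overlapped, since Lyo 2 lay below its own Control while the other pairs moved upward. Its log2 fold change of 0.11 had a limma adjusted p of 0.667 without the block and 0.157 with it. Only with pair 2 left out and the block kept was MCL1 called, at a log2 fold change of 0.19 (limma adjusted p = 0.00663). In that fit 5359 of the 11134 genes were called.

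BCL2, the founding member, had 40.6, 22.0 and 24.9 FPKM in Control and 43.6, 24.0 and 26.8 FPKM in Lyo. The pairs differed far more than the treatments: both samples of pair 1 were well above the other 4, and within each pair Lyo was above Control by ratios of 1.07, 1.09 and 1.07. The log2 fold change was 0.11, with an SD over the 3 paired differences of 0.01, the least of any member. Neither fit called it (limma adjusted p = 0.882 without and 0.172 with the block).

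BCL2L1, whose main product BCL-xL protects the same membrane, had 27.3, 20.6 and 21.9 FPKM in Control and 28.2, 20.5 and 20.7 FPKM in Lyo. The pairs went different ways, with ratios of 1.03, 0.999 and 0.944, and the groups overlapped. Its log2 fold change was -0.01 (limma adjusted p = 0.981 without and 0.892 with the block). The libraries are not stranded, and 1468 bases of its exons lie opposite those of the antisense gene ABALON, whose reads cannot be told apart from its own.

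The pore formers varied little. BAX had 209, 214 and 177 FPKM in Control and 197, 205 and 166 FPKM in Lyo. Lyo was below Control in each pair, by ratios of 0.940, 0.959 and 0.938, yet the groups overlapped because both samples of pair 3 were low. The log2 fold change of -0.08 did not pass (limma adjusted p = 0.807 without and 0.166 with the block). It passed only with the block and quantile normalization together, at -0.17 (limma adjusted p = 0.0134), where 3510 of the 11134 genes were called.

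BAK1 was the steadiest member between pairs, with 30.1, 27.7 and 29.6 FPKM in Control and 27.0, 28.1 and 27.9 FPKM in Lyo. The groups overlapped and pair 2 moved against the other pairs. Its log2 fold change was -0.07 (limma adjusted p = 0.757 without and 0.374 with the block). Of the 75-base stretches of its transcript, 28.5% occur more than once in the genome, and 91 bases lie opposite exons of GGNBP1, so its level is uncertain. None of the other 9 members had such repeated stretches.

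Of the BH3-only members, PMAIP1 (NOXA), which binds MCL1 and BCL2A1 and promotes the loss of MCL1, had the largest uncorrected log2 fold change of the 10 members. It had 60.5, 53.6 and 54.5 FPKM in Control and 85.4, 64.6 and 75.1 FPKM in Lyo. The groups did not overlap, and the ratios within pairs were 1.41, 1.21 and 1.38. The log2 fold change was 0.41, or 32.9% more, with a standard error of 0.13 and a limma adjusted p of 0.231 without the block, and with a standard error of 0.06 and an adjusted p of 0.00186 with it.

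BBC3 (PUMA), a p53 target that binds every survival member, went the other way. It had 17.7, 9.48 and 9.98 FPKM in Control and 14.3, 8.29 and 7.73 FPKM in Lyo. Lyo was below Control in each pair, at ratios of 0.807, 0.875 and 0.774, but the groups overlapped because both samples of pair 1 were well above the rest. The log2 fold change was -0.29, or -18.1%, with a limma adjusted p of 0.684 without the block and 0.0231 with it. Without the block, leaving out Control 1 brought the log2 fold change to -0.0011 and leaving out Lyo 1 to -0.56. The call with the block did not hold when pair 1 was left out (log2 fold change -0.28, limma adjusted p = 0.0865) or pair 3 (-0.25, limma adjusted p = 0.242).

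BID, which links death receptors to the mitochondria once caspase-8 has cut it, had 70.5, 63.3 and 66.5 FPKM in Control and 69.6, 71.2 and 66.6 FPKM in Lyo. The groups overlapped, and only pair 2 moved by more than a few percent. Its log2 fold change was 0.05 (limma adjusted p = 0.841 without and 0.497 with the block), and rescaling each sample to the same FPKM sum turned it to -0.02. BCL2L11 had 1.98, 1.09 and 1.53 FPKM in Control and 1.76, 1.51 and 1.60 FPKM in Lyo. Its ratios of 0.889, 1.39 and 1.04 had no common direction, the log2 fold change was 0.11, and 727 bases of its exons lie opposite MIR4435-2HG (limma adjusted p = 0.851 without and 0.624 with the block).

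**Figure D2:**
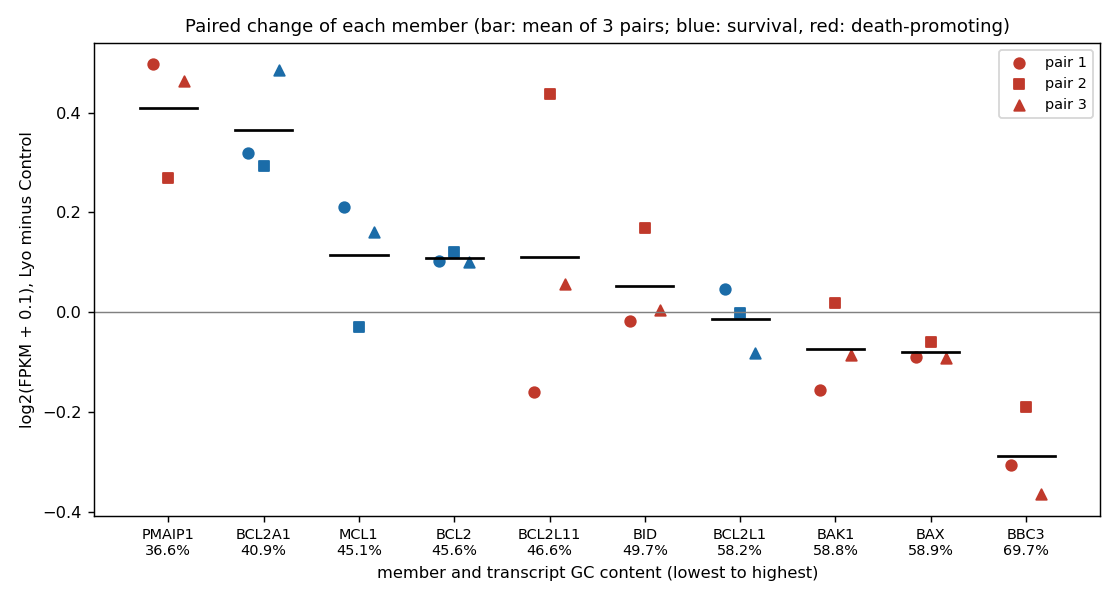
Difference in log2(FPKM + 0.1), Lyo minus Control, for each pair (symbols) and the mean of 3 pairs (bar), with the members ordered by the GC content of their longest coding transcript, blue for survival and red for death-promoting. The 5 members with transcripts below 47% GC have means above 0, and BCL2L1, BAK1, BAX and BBC3, all above 58%, have means below 0.

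The called members stood at the ends of the family in base composition, a property that the choice of members did not use. The transcripts ran from 36.7% GC in PMAIP1 and 40.9% in BCL2A1 to 69.7% in BBC3, and these 3 were the members called with the block. Members richer in GC had lower log2 fold changes, with a Spearman rho of -0.99 across the 10 members and of -0.86, -0.67 and -0.99 within pairs 1 to 3. The 10 points share the same 6 libraries. Over 9688 tested genes with a transcript (87.0% of those tested), rho was -0.78. The median log2 fold change was 0.29 for genes below 40% GC, 0.18 at 40 to 45%, 0.05 at 45 to 50%, -0.16 at 55 to 60% and -0.31 above 65%. BBC3, at -0.29, lay beside the median of its own GC class of -0.31. PMAIP1, BCL2A1 and BCL2L1 lay above the upper quartiles of theirs (0.37, 0.26 and -0.03), and the other members lay between the quartiles.

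**Figure D3:**
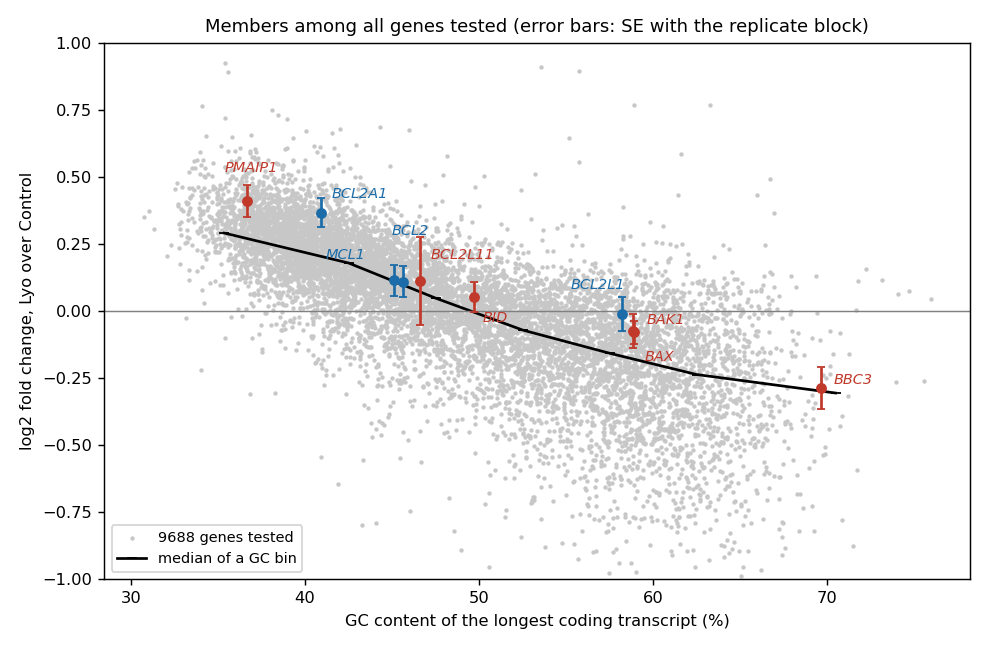
Log2 fold change, Lyo over Control, against transcript GC content in percent for 9688 genes (grey; 47 lie outside the vertical axis), with the median of each GC class as a black line and the members in blue (survival) or red (death-promoting) with the standard error of the fit with the replicate block. The members descend along the line, with PMAIP1 (36.7% GC) at 0.41 and BBC3 (69.7% GC) at -0.29.

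When a loess curve over GC content was subtracted in each sample and the block kept, 2 of 10 members passed, against 17.8% of the 9688 genes. PMAIP1 had a corrected log2 fold change of 0.16 (limma adjusted p = 0.0276) and BCL2A1 of 0.19 (limma adjusted p = 0.0309), while BBC3 was at -0.02 (limma adjusted p = 0.830). BCL2L1, BAX and BAK1 changed sign to 0.16, 0.10 and 0.11 without passing, and rho across the members became -0.29. With a correction for transcript length as well, 2 of 10 members passed, against 8.68% of genes. They were BCL2A1 at 0.18 (limma adjusted p = 0.0318) and PMAIP1 at 0.17 (limma adjusted p = 0.0417), and BAX was at -0.03 there. The part of base composition in the differences between dried and fresh cells was not otherwise tested.

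**Figure D4:**
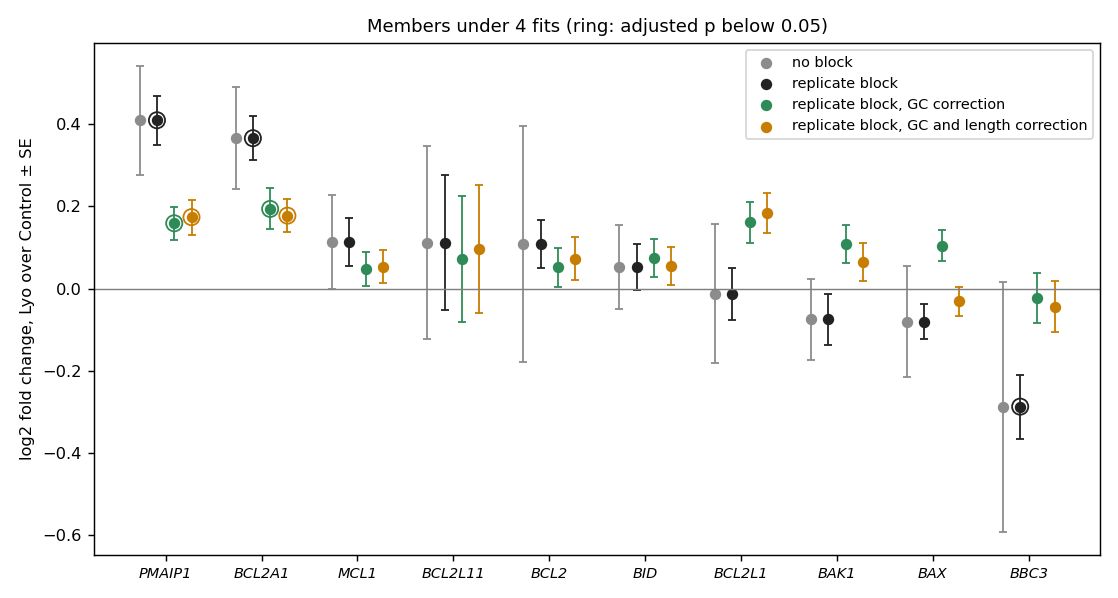
Log2 fold change, Lyo over Control, with its standard error (vertical axis) for each member under 4 fits: no block (grey), replicate block (black), block with GC correction (green) and block with GC and length correction (orange), with a ring where the adjusted p was below 0.05. PMAIP1 and BCL2A1 carry a ring in the 3 fits with the block, and the black ring of BBC3 at -0.29 has no counterpart after the corrections.

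The next question was whether survival and death-promoting messages moved apart. The median log2 fold change was 0.11 over the 4 survival members and -0.01 over the 6 death-promoting ones. By pair, the survival median was 0.16, 0.06 and 0.13 and the death-promoting median -0.12, 0.09 and -0.04, so that pair 2 ran against the others, with a difference of -0.03 where pairs 1 and 3 had 0.28 and 0.17. In the mean over samples the difference of the medians was 0.12, and leaving out 1 sample moved it between -0.03 (without Lyo 1) and 0.26 (without Lyo 2). The death-promoting median then lay between -0.07 and 0.05 and the survival median between -0.03 and 0.24, each on both sides of 0. After the GC correction the difference of the medians was 0.02, with medians of 0.11 and 0.09. With length corrected as well it was 0.07, with medians of 0.12 and 0.06. With the block, the calls fell on both sides, with BCL2A1 higher among the survival members, and PMAIP1 higher and BBC3 lower among the death-promoting ones.

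As summed levels, the survival members held 233, 200.1 and 199 FPKM in Control and 272, 220 and 239 FPKM in Lyo, and the death-promoting members 390, 369 and 339 FPKM in Control and 395, 379 and 345 FPKM in Lyo. Both sums were above their Control in all 3 pairs, by 0.21 ± 0.07 and 0.03 ± 0.01 on the log2 scale (mean and SD of 3 pairs). The FPKM total over all records was also higher in each pair, at 508465, 470087 and 468790 in Control and 524744, 502968 and 489828 in Lyo. With each sample rescaled to the same FPKM total, the median log2 fold change was 0.04 over the survival members and -0.08 over the death-promoting ones. The ratio of the sums was 0.598, 0.542 and 0.587 in Control and 0.688, 0.580 and 0.692 in Lyo. It was higher in Lyo in each pair, yet Lyo 2 lay within the Control range. These sums were not corrected for GC content, which was 58.9% in BAX, 40.9% in BCL2A1 and 45.1% in MCL1. The part of base composition in their ratio was not tested. Among the survival members, BCL2A1 had the largest difference in group means, at 84.3 FPKM in Control and 108 FPKM in Lyo. MCL1 had means of 73.9 and 80.2 FPKM, BCL2 of 29.2 and 31.4 FPKM, and BCL2L1 of 23.27 and 23.15 FPKM. BAX alone made up 52.2 to 57.9% of the death-promoting sum in Control and 48.1 to 54.1% in Lyo. Without BAX the ratio was 1.29, 1.29 and 1.23 in Control and 1.37, 1.26 and 1.33 in Lyo, higher in 2 of 3 pairs.

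Ratios between partners remove what both messages share in a library. BCL2 over BAX, a ratio long used as a survival index, was 0.194, 0.103 and 0.141 in Control and 0.222, 0.117 and 0.161 in Lyo. It was highest in pair 1 and lowest in pair 2, and within each pair Lyo was above Control by 0.19 ± 0.01 on the log2 scale. MCL1 over PMAIP1, a survival protein and the BH3-only protein that targets it, was 1.18, 1.36 and 1.42 in Control and 0.965, 1.11 and 1.15 in Lyo. All Lyo ratios were below all Control ratios, by -0.30 ± 0.01 within pairs. BCL2A1 over PMAIP1, the 2 members that were higher in Lyo, had no common direction, at 1.55, 1.57 and 1.37 in Control and 1.37, 1.60 and 1.39 in Lyo. The members of the first 2 ratios also differ in GC content, at 45.6% for BCL2 and 58.9% for BAX, and at 45.1% for MCL1 and 36.7% for PMAIP1. From the fits with the GC correction, the log2 difference of BCL2 over BAX was -0.05, the reverse of its uncorrected direction, and 0.10 with length corrected as well. That of MCL1 over PMAIP1 was -0.11 and -0.12.

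**Figure D5:**
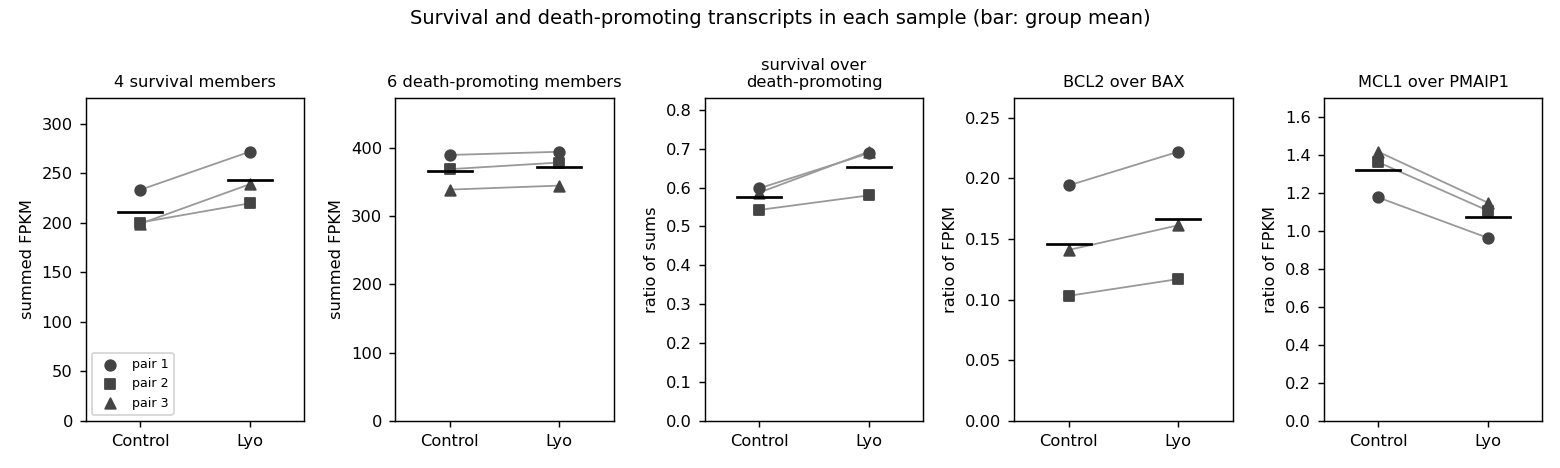
Summed FPKM of the 4 survival and the 6 death-promoting members, the ratio of these sums, BCL2 over BAX and MCL1 over PMAIP1 (vertical axes, linear and starting at 0) in Control and Lyo samples, with pairs joined by lines and bars at group means. In every pair the lines of BCL2 over BAX rise, by 0.19 on average on the log2 scale, and those of MCL1 over PMAIP1 descend, by -0.30.

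Much of the spread of the family lay between pairs. The range of pair means on the log2 scale was 0.87 for BCL2 and 0.85 for BBC3, both highest in pair 1, then 0.51 for BCL2L11 and 0.43 for BCL2L1, also highest in pair 1. It was 0.29 for BAX and for PMAIP1, 0.25 for BCL2A1, 0.18 for MCL1, 0.07 for BID and 0.04 for BAK1. Pair 1 was also the highest for PMAIP1, BCL2A1 and BID, while BAX was highest in pair 2 and MCL1 and BAK1 in pair 3. The antagonists BCL2 and BBC3 thus shared their high pair with most members. For both of these antagonists, this range exceeded the size of the log2 fold change between Lyo and Control. For PMAIP1, BCL2A1 and BAK1 the difference between treatments was the larger, though that of BAK1 was only -0.07.

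The rest of the family was followed as 14 further genes, of which 9 passed the expression filter. HRK was listed at 0 in every sample, and BCL2L14, BCL2L15, BOK and BNIPL were below the filter. At these low levels the groups did not overlap in BCL2L14, with 0.315 to 0.392 FPKM in Control and 0.427 to 0.686 in Lyo. Nor did they in BNIPL, with 0.190 to 0.336 FPKM in Control and 0.0489 to 0.122 in Lyo. Neither gene was tested, and among the genes tested the groups did not overlap in 22.2%. Without the block 0 of the 9 passed (0 at an unadjusted p below 0.05), and with it 1 passed, again against 30.7% of all genes. That gene was BNIP3L (NIX), a receptor for the removal of mitochondria by autophagy, with 36.8, 34.4 and 35.9 FPKM in Control and 50.5, 35.8 and 43.9 FPKM in Lyo. Its log2 fold change was 0.27 (limma adjusted p = 0.0273 with the block), its transcript holds 37.4% GC, and after the GC correction it was at 0.03 (limma adjusted p = 0.757).

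The other tested relatives gave no call with the block alone. BNIP3, the paralog of BNIP3L, was the most abundant of them, at 66.1 to 86.6 FPKM in Control and 77.1 to 91.2 FPKM in Lyo. Its log2 fold change of 0.15 (limma adjusted p = 0.0531) became 0.22 after the GC correction (limma adjusted p = 0.0108). It was 0.22 with length corrected as well (limma adjusted p = 0.0186), though 4.71% of its stretches are repeated. Of the 9 tested relatives, 2 passed after the GC correction, against 17.8% of genes. With length corrected as well 1 passed, against 8.68%. BAD, a BH3-only protein silenced by growth factor signals, had 25.6 to 35.4 FPKM in Control and 25.1 to 37.3 FPKM in Lyo. Its log2 fold change was 0.10, and 0.37 after the GC correction (limma adjusted p = 0.00387), but 0.19 with the length correction as well (limma adjusted p = 0.0630). BMF, another BH3-only gene, was highest in pair 1 like BBC3, at 14.3 to 26.4 FPKM in Control and 13.1 to 24.0 FPKM in Lyo, with a log2 fold change of -0.16 (limma adjusted p = 0.0942). The survival members BCL2L2 and BCL2L10 were low, at 5.24 to 7.19 FPKM and 8.37 to 12.5 FPKM over all samples, with log2 fold changes of -0.20 and 0.14. BCL2L12, BCL2L13 and BIK lay between 0.00 and 0.08 on the log2 fold change scale. Exons of BAD, BMF and BCL2L12 lie opposite those of GPR137, BMF-AS1 and IRF3, and those of BCL2L2 are shared with the readthrough gene BCL2L2-PABPN1.

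Downstream of the mitochondria, 17 of 18 caspase and apoptosome genes were tested, and 3 passed with the block, all higher in Lyo, where 15.9% of all genes were called. Cytochrome c (CYCS), which BAX and BAK1 release, had a log2 fold change of 0.40 (limma adjusted p = 0.00317 with the block), with 17.0, 33.9 and 25.4 FPKM in Control and 23.1, 40.8 and 36.1 FPKM in Lyo. The outer membrane channel VDAC3 was at 0.25 (limma adjusted p = 0.00642). In both genes the groups overlapped, since Control 1 and Lyo 1 were the lowest of their groups, the opposite of BCL2 and BBC3. The median of the list was 0.09. After the GC correction 6 of the 17 passed, 5 higher and 1 lower, against 17.8% of genes. With length corrected as well 2 passed, against 8.68%. CYCS passed in both, at 0.24 (limma adjusted p = 0.0107) and 0.25 (limma adjusted p = 0.0194). VDAC3 passed with the GC correction at 0.15 (limma adjusted p = 0.0407), but not with length as well (0.11, limma adjusted p = 0.123).

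Among inhibitors of apoptosis, which block caspases or their activation, 5 of 7 genes were tested and 2 passed with the block, against 30.7% of all genes. BIRC2 had 9.24, 10.1 and 9.29 FPKM in Control and 14.1, 12.1 and 12.6 FPKM in Lyo, a log2 fold change of 0.43 (limma adjusted p = 0.00704 with the block). BIRC3 had 29.1, 32.0 and 26.6 FPKM in Control and 44.3, 34.3 and 38.3 FPKM in Lyo, a log2 fold change of 0.41 (limma adjusted p = 0.0104 with the block). The groups did not overlap in either gene, as in 22.2% of all genes, the list's median was 0.35, and their transcripts hold 38.1% and 35.8% GC. Upstream, 9 of 12 death receptor genes were tested, and only the receptor FAS passed with the block, again against 30.7% of all genes, with a log2 fold change of 0.36 (limma adjusted p = 0.0110). Its values were 35.5, 35.7 and 25.6 FPKM in Control and 51.7, 38.6 and 34.1 FPKM in Lyo, so the groups overlapped, and the list's median was 0.08. Without the block none of these 3 lists held a call, and 2 inhibitor genes but no caspase or receptor gene had an unadjusted p below 0.05 in limma. After the GC correction BIRC2 passed at 0.20 (limma adjusted p = 0.0479) but not with length corrected as well (0.21, limma adjusted p = 0.0593), BIRC3 was at 0.15 (limma adjusted p = 0.120) and FAS at 0.15 (limma adjusted p = 0.0740).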

How the data were processed

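According to the methods and the submitters' processing notes, base calling used CASAVA 1.4 and reads were mapped to hg19 (GRCh37) with TopHat2 2.0.7, keeping reads with 1 genomic position. The authors deposited 1 table of FPKM values per sample, computed with Cufflinks. The Cufflinks version and gene annotation are not given in the sources used here. The 24934 records were joined by symbol and locus and reduced to 23284 symbols (the record with the highest mean). The 1622 symbols of small non-polyadenylated RNAs were dropped, and a group mean of more than 1 FPKM was required in Control or Lyo.

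Log2(FPKM + 0.1) was compared with limma 3.58.1 (R 4.3.3) with a mean-variance trend, two-sided, at an adjusted p of 0.05. The scale understates changes of genes with low values. The main model held the treatment alone, following the study's unpaired comparison, and another added the pair number as a block. Pairing comes from the paper and the replicate numbers in the labels. Deviations of paired samples from their group means correlated at r = 0.716, 0.603 and 0.476. GC content, length and sequence come from the longest coding transcript of each gene in GENCODE (v44 lifted to GRCh37), which need not be the main isoform. Loess correction had a span of 0.3 and degree 2. Tests were tried on simulated data. Python 3.11.15, pandas 2.3.3, biopython 1.88 and matplotlib 3.10.9 were used.

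The members and lists were chosen with earlier results of these data known. Named genes are all 10 members, every tested other family gene, and up to 5 genes per further list with the largest change among those called with the block. Alternatives covered the pseudocount, filters, scaling, variance trend, block, corrections and omitted samples. Protein sequences were not used here, and values of 1 gene of the further lists are not reported here.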

Additional observations from a re-analysis of the deposited data

How the results depend on the processing

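Pseudocounts of 1 and 0.01, a filter at 5 FPKM (which removes BCL2L11), summed records, retained small RNAs, median centring, quantile normalization and the fit without a variance trend kept every other member's direction and, without the block, called none. Without the filter on low values 0 genes were called over all genes. With each sample's FPKM rescaled to the same sum, the survival median was 0.0429 and the log2 fold change of BID -0.0168. The replicate block gave 3423 genes in all, and 3 members, 1 other family gene, 3 caspase and apoptosome genes, 2 inhibitors and 1 death receptor gene, and changed the call of no member other than BCL2A1, PMAIP1 and BBC3. With the block and GC correction these counts were 1725, 2, 2, 6, 2 and 0, and BCL2L1, BAX and BAK1 turned to 0.16, 0.10 and 0.11. With length corrected as well they were 841, 2, 1, 2, 0 and 0, and BCL2L1 and BAK1 turned to 0.184 and 0.0645.

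Leaving out any 1 sample without the block left 0 genes called, moved the survival median between -0.0302 and 0.2397, and moved BCL2 between -0.15 and 0.37, BCL2L1 between -0.16 and 0.11, BAX between -0.17 and 0.0105, BBC3 between -0.5647 (without Lyo 1) and -0.0011 (without Control 1) and BCL2L11 between -0.10 and 0.30. With the replicate block and 1 pair left out, 1264 (without pair 3), 2194 (without pair 1) and 5359 (without pair 2) genes were called in all, 2 to 4 members, 0 to 3 other family genes, 3 to 6 caspase genes, 2 to 3 inhibitors and 1 to 4 death receptor genes. BID then ranged from -0.0074 to 0.0865, BCL2L11 from -0.0525 to 0.2467 and BCL2L1 from -0.0424 to 0.0221. BCL2A1 and PMAIP1 were called in each of these 3 fits.

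Chosen after seeing the data, the block with samples centred on the median gave 3674 genes, 3 members, and 1, 5, 3 and 1 genes of the other lists in the same order, and the block with quantile normalization gave 3510, 4, 1, 4, 3 and 2. GC correction without the block gave 0 genes and turned BCL2L1, BAX and BAK1 to 0.16, 0.10 and 0.11. The causes of these shifts were not tested. Depth was least for BCL2L11, at about 16.1 fragments per kilobase in Control 2.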
